A study of Mus musculus with 8 samples.

Results

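The 9 genes Itga2b, Itgb3, Gp1ba, Gp1bb, Gp5, Gp6, Gp9, Clec1b and Treml1 encode the receptors with which platelets and their parent cells, the megakaryocytes, adhere and respond to exposed matrix. They were chosen by name, with earlier results of these data known, and all 9 were present among the 13305 genes of the raw count table. RNA-seq libraries had been prepared from whole bone marrow (BM) of 8 mice of the strain C57BL/6N, 1 library per mouse, to ask how the loss of Gab2, a docking protein that amplifies cytokine and growth factor receptor signals, alters the BM of mice with acute myeloid leukemia (AML). All 8 mice carried the Mx1-Cre transgene, 1 lost and 1 retained Dnmt3a allele (Dnmt3a+/-) and the internal tandem duplication on both Flt3 alleles (Flt3ITD/ITD). They differed in Gab2, which was intact in 3 mice (Gab2+/+, AML WT), heterozygous in 2 (Gab2+/-, AML HET) and deleted in 3 (Gab2-/-, AML KO). The Mx promoter driving Cre responds to interferon, and the study relied on its spontaneous activity in the BM without an inducing agent. The Gab2 deletion was constitutive and thus present in megakaryocytes, leukemic cells and stroma alike. No treatment was labelled, the age of these 8 mice is not given in the sources used here, and libraries of non-leukemic mice were not analysed here.

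Platelets adhere in steps, and each receptor serves one of them. The GPIb-IX-V complex, built from the products of Gp1ba, Gp1bb, Gp9 and Gp5, tethers platelets to von Willebrand factor under high shear. Glycoprotein VI, from Gp6, binds collagen and signals through the ITAM of its partner, the Fc receptor gamma chain encoded by Fcer1g. CLEC-2, from Clec1b, binds podoplanin and carries its own single-YxxL hemITAM, which recruits the kinase Syk. Both routes end at the integrin αIIbβ3, from Itga2b and Itgb3, which binds fibrinogen once activated from within. Treml1 encodes TLT-1, a receptor stored in the alpha granules and exposed on activation. In the BM these transcripts mark megakaryocytes and the platelets they shed, but Itga2b is also transcribed in early progenitors and Itgb3 in osteoclasts, endothelium and macrophages.

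The 8 libraries held between 28009258 and 39266815 counts, and a count of 3, the limit that a count of 0 allows, corresponded to 0.0738 to 0.109 CPM, a count as a share of the TMM-scaled library total, which is the level used throughout. Gab2 itself stood at 93.9, 68.5 and 61.6 CPM in AML WT mice, 55.8 and 50.8 CPM with 1 Gab2 allele left (AML HET) and 34.96, 47.2 and 40.2 CPM in AML KO mice. It fell by 0.87 on the log2 scale between AML WT and AML KO (SE 0.18, adjusted p = 0.0420, edgeR quasi-likelihood test, Benjamini-Hochberg adjusted). With each mouse left out in turn the log2 fold change ran from -0.99 to -0.68, and the call was lost without any 1 of 6 mice, all but AML WT mouse 3 and AML KO mouse 2 (adjusted p up to 0.159). Its count was taken over the whole gene, including exons outside the deleted stretch. No gene of the lists used below was at 0 in any library.

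In the GRCm38 annotation, 3 of the 9 genes lie on chromosome 11, namely Itga2b (ENSMUSG00000034664, chr11:102453297-102470122, minus strand), Itgb3 (ENSMUSG00000020689, chr11:104608000-104670476, plus strand) and Gp1ba (ENSMUSG00000050675, chr11:70639122-70642036, plus strand). Gp1bb (ENSMUSG00000050761, chr16:18620317-18622403) and Gp5 (ENSMUSG00000047953, chr16:30307685-30310779) lie on the minus strand of chromosome 16. Gp9 (ENSMUSG00000030054, chr6:87778072-87779768) and Clec1b (ENSMUSG00000030159, chr6:129397297-129409335) lie on the plus strand of chromosome 6. Gp6 (ENSMUSG00000078810, chr7:4363965-4397744) is on the minus strand of chromosome 7 and Treml1 (ENSMUSG00000023993, chr17:48359916-48367176) on the plus strand of chromosome 17. Except for Gp1bb and Clec1b, none of the 9 genes shared exon bases with another annotated gene. Of the exon bases of Gp1bb, 91.1% are also annotated to the same-strand gene Sept5, which encodes a septin. A further same-strand protein-coding gene, Gm49601, shares 41.5% of the Gp1bb exon bases and is absent from the count table. Clec1b shares 3.61% of its exon bases with the same-strand gene Clec9a, a receptor of dendritic cells. How reads in such shared stretches were assigned is not given in the sources used here, so the Gp1bb counts in particular are uncertain.

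RefSeq promoter windows of 250 bases before to 50 bases after the start of the gene (GRCm38.p6) were at hand for 8 of the 9 genes, Itgb3 being the ninth. Megakaryocyte genes are known targets of GATA, ETS and RUNX transcription factors, so the windows were searched on both strands for a short core motif of each, GATAA (GATA factors), GGAAG (ETS factors) and TGTGGT (RUNX factors), none of which overlapped another here. GATAA or its reverse TTATC occurred in 5 of the 8 windows (Gp1ba, Gp5, Gp6, Gp9, Clec1b), against 25.4% of all 32851 windows. GGAAG or CTTCC occurred in 7 of the 8, all except Clec1b, against 71.4% of all windows. TGTGGT or ACCACA occurred in Gp9 alone, against 16.8%. The 250 bases before the start are shown for the integrin subunit Itga2b and for Gp1ba, Gp5 and Gp9 of GPIb-IX-V, 5′ to 3′ on the strand of the gene, to show how close to the start these letters lie, with every match in capitals. Matches of letters are a description and no evidence of binding. The windows are chr11:102469884-102470133 (minus) for Itga2b, chr11:70638872-70639121 (plus) for Gp1ba, chr16:30310782-30311031 (minus) for Gp5 and chr6:87777820-87778069 (plus) for Gp9.
Itga2b: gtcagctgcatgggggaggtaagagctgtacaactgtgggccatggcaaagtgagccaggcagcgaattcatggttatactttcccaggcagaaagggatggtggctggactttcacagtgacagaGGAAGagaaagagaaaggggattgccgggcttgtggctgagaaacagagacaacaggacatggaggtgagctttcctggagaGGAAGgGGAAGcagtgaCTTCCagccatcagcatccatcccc
Gp1ba: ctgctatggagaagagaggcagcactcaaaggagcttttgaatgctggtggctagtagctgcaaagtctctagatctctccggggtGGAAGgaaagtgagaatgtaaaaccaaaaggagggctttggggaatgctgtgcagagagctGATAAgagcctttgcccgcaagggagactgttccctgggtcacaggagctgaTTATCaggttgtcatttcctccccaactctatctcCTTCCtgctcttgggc
Gp5: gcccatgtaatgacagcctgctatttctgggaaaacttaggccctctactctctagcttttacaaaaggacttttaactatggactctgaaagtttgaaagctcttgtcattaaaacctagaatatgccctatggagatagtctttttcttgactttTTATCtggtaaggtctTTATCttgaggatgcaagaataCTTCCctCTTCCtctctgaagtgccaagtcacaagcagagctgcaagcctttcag
Gp9: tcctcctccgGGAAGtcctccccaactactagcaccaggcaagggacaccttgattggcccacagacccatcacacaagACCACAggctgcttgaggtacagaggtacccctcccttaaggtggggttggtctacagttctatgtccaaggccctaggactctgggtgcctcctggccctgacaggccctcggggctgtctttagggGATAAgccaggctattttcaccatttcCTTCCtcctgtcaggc
The matches of GATAA or TTATC begin 103 and 51 bases before the start of Gp1ba, 93 and 77 bases before that of Gp5 and 43 bases before that of Gp9. Itga2b holds 4 matches of GGAAG or CTTCC instead, beginning 124, 42, 36 and 25 bases before its RefSeq start. That start lies inside the gene as placed above, which extends to base 102470122. These 4 matches therefore fall within the gene of that annotation.

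Between AML KO and AML WT, all 9 receptor genes had higher CPM in every AML KO mouse than in any AML WT mouse, an arrangement found for 12.3% of all genes tested. Of the 9, 8 passed an adjusted p of 0.05 and rose, against 1.77% of all genes, and Itgb3 alone did not (edgeR quasi-likelihood test, Benjamini-Hochberg adjusted over all 13305 genes). Their median log2 fold change was 3.00, beside -0.02 for all genes. In whole BM, a different number of cells of a type and a different amount of RNA per cell cannot be told apart, which applies to every level given here. With AML WT mouse 2 left out, 5 of the 9 were called while the number of genes called in the whole table went from 278 to 40. Each of the 9 genes was higher in AML KO under all alternatives tried.

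**Figure D1:**
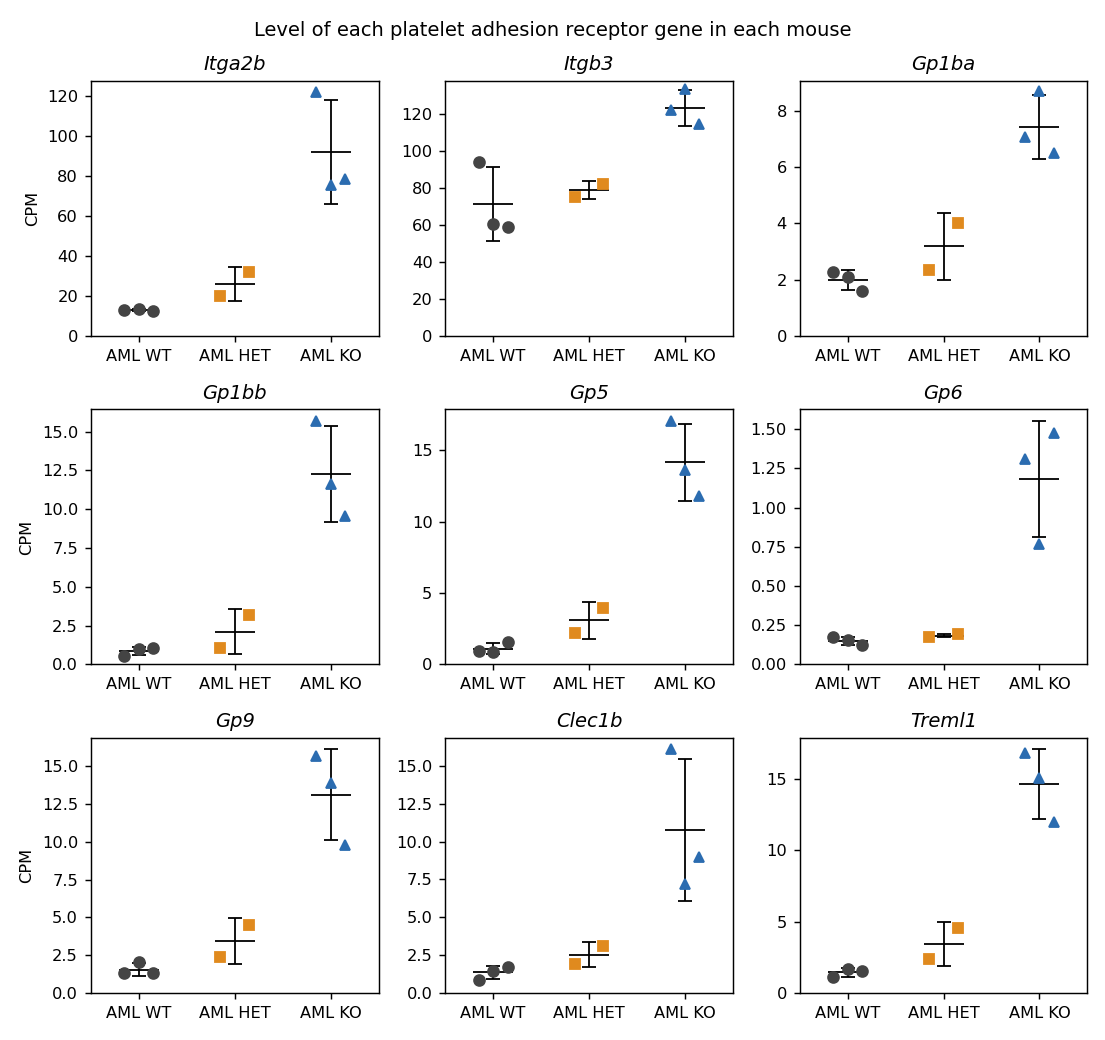
CPM of the 9 receptor genes, 1 panel per gene with its own linear axis from 0, with 1 point per mouse for AML WT (n = 3), AML HET (n = 2) and AML KO (n = 3), a line at the group mean and error bars of 1 SD. In each panel the 3 AML KO points lie above all AML WT and AML HET points, and the AML HET points lie above the AML WT points in all panels except Itgb3.

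The integrin subunits were the most abundant of the receptors, but only the alpha subunit passed the test. Itga2b, the αIIb chain, stood at 12.8, 13.4 and 12.5 CPM in AML WT mice, 19.9 and 32.2 CPM with 1 Gab2 allele left (AML HET) and 122, 75.5 and 78.7 CPM in AML KO mice. The AML WT mice hardly differed among themselves, AML HET lay between the other groups without overlap, and AML KO mouse 1 stood above the other 2 mice of its group. Its mean rose 7.15-fold, from 12.9 ± 0.459 CPM (SD, n = 3) to 92.1 ± 26.0 (SD, n = 3), a log2 fold change of 2.84 (SE 0.24, 95% interval 2.30 to 3.37). With an adjusted p of 0.00129 it was the 5th of all genes by p (edgeR quasi-likelihood test, Benjamini-Hochberg adjusted).

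Itgb3, the β3 chain, stood at 94.2, 60.7 and 59.0 CPM in AML WT mice, 75.3 and 82.2 CPM with 1 Gab2 allele left (AML HET) and 122, 134 and 114 CPM in AML KO mice. All AML KO values were above all others, whereas AML HET lay inside the range of AML WT, in which mouse 1 was far above the other two. From 71.3 ± 19.9 CPM (SD, n = 3) in AML WT to 123 ± 9.76 (SD, n = 3) in AML KO the mean differed 1.73-fold. The log2 fold change was 0.79 (SE 0.18, 95% interval 0.38 to 1.198) and missed the threshold (adjusted p = 0.0645, edgeR quasi-likelihood test, Benjamini-Hochberg adjusted). Without AML WT mouse 1 the log2 fold change was 1.03 and passed it (adjusted p = 0.0107), and with all 8 mice it also passed in DESeq2 (adjusted p = 0.00302) and in edgeR with upper-quartile normalization. Osteoclasts share β3, and their 5 analysed markers summed to 223 to 237 CPM in AML WT, 129 to 134 in AML HET and 102 to 153 in AML KO, with Ctsk and Acp5 called lower. The part of osteoclasts in the Itgb3 values was not tested.

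The 4 genes of GPIb-IX-V all rose, by unequal amounts. Gp1ba, the chain that holds the von Willebrand factor site, stood at 2.29, 2.09 and 1.59 CPM in AML WT mice, 2.35 and 4.01 CPM with 1 Gab2 allele left (AML HET) and 7.06, 8.70 and 6.51 CPM in AML KO mice. AML HET mouse 1 was barely above the highest AML WT mouse, and AML KO lay apart from both groups. The mean rose 3.73-fold, a log2 fold change of 1.90 (SE 0.28, 95% interval 1.28 to 2.52, adjusted p = 0.0111, edgeR quasi-likelihood test, Benjamini-Hochberg adjusted), the smallest of the 8 called changes. Without AML WT mouse 2 its adjusted p was 0.0675.

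Gp9, the GPIX chain that the complex needs to reach the surface, stood at 1.33, 2.02 and 1.29 CPM in AML WT mice, 2.38 and 4.52 CPM with 1 Gab2 allele left (AML HET) and 15.7, 13.9 and 9.78 CPM in AML KO mice. The 3 groups did not overlap, and the AML HET mice differed from each other by more than their mean exceeded that of AML WT. Between these outer groups its log2 fold change was 3.08 (SE 0.33, 95% interval 2.35 to 3.82, adjusted p = 0.00354, edgeR quasi-likelihood test, Benjamini-Hochberg adjusted), with means 8.48-fold apart.

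Gp5, whose product GPV is the chain cleaved by thrombin, stood at 0.910, 0.853 and 1.56 CPM in AML WT mice, 2.17 and 3.98 CPM with 1 Gab2 allele left (AML HET) and 17.0, 13.6 and 11.8 CPM in AML KO mice. Again every AML HET value lay between the groups, well below the lowest AML KO value. The means were 12.8-fold apart and the log2 fold change was 3.67 (SE 0.34, 95% interval 2.92 to 4.43, adjusted p = 0.00192, edgeR quasi-likelihood test, Benjamini-Hochberg adjusted).

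Gp1bb, the GPIbβ chain disulfide-linked to GPIbα, stood at 0.541, 0.980 and 1.07 CPM in AML WT mice, 1.09 and 3.15 CPM with 1 Gab2 allele left (AML HET) and 15.7, 11.6 and 9.58 CPM in AML KO mice. AML HET mouse 1 lay just above the AML WT range and mouse 2 well above it. It had the largest change of the 9 genes, a log2 fold change of 3.84 (SE 0.44, 95% interval 2.86 to 4.82, adjusted p = 0.00472, edgeR quasi-likelihood test, Benjamini-Hochberg adjusted). The overlapping Sept5 stood at 3.34, 6.20 and 9.77 CPM in AML WT and 15.3, 23.6 and 16.7 in AML KO, a log2 fold change of 1.53 (SE 0.37) that missed the threshold (adjusted p = 0.0762, edgeR quasi-likelihood test, Benjamini-Hochberg adjusted). Reads of both genes from the shared stretch cannot be told apart in these counts.

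The collagen and podoplanin receptors were rarer. Gp6 was the least abundant of the 9, with raw counts of 7, 5 and 4 in AML WT, of 5 and 6 in AML HET and of 40, 21 and 50 in AML KO. In CPM this was 0.122 to 0.172 in AML WT, 0.175 and 0.191 in AML HET and 0.764 to 1.47 in AML KO. At this depth AML HET was barely outside the AML WT range, at single counts. AML KO exceeded AML WT by a log2 fold change of 2.94 (SE 0.43, 95% interval 1.97 to 3.90, adjusted p = 0.0115, edgeR quasi-likelihood test, Benjamini-Hochberg adjusted), and 0.0675 was its adjusted p without AML WT mouse 2. Fcer1g, which supplies its signaling chain and is abundant in myeloid cells, showed a log2 difference of 0.21 (SE 0.18, adjusted p = 0.539, edgeR quasi-likelihood test, Benjamini-Hochberg adjusted).

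Clec1b stood at 0.861, 1.45 and 1.75 CPM in AML WT mice, 1.93 and 3.12 CPM with 1 Gab2 allele left (AML HET) and 16.1, 7.21 and 8.96 CPM in AML KO mice. AML KO mouse 1 was about as far above the other AML KO mice as these were above AML WT, the widest spread of the 9 genes in that group relative to the mean. The log2 fold change was 3.00 (SE 0.40, 95% interval 2.11 to 3.89, adjusted p = 0.00884, edgeR quasi-likelihood test, Benjamini-Hochberg adjusted), 2.58 without AML KO mouse 1, and the adjusted p without AML WT mouse 2 was 0.0579. Clec9a, with which it shares a short stretch, had the opposite sign, a log2 difference of -0.55 (adjusted p = 0.285, edgeR quasi-likelihood test, Benjamini-Hochberg adjusted).

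Treml1 stood at 1.08, 1.71 and 1.53 CPM in AML WT mice, 2.35 and 4.52 CPM with 1 Gab2 allele left (AML HET) and 16.8, 15.1 and 11.99 CPM in AML KO mice. The groups did not overlap and the AML KO mice lay close together. It rose 10.2-fold by the means, a log2 fold change of 3.35 (SE 0.31, 95% interval 2.66 to 4.04, adjusted p = 0.00192, edgeR quasi-likelihood test, Benjamini-Hochberg adjusted).

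**Figure D2:**
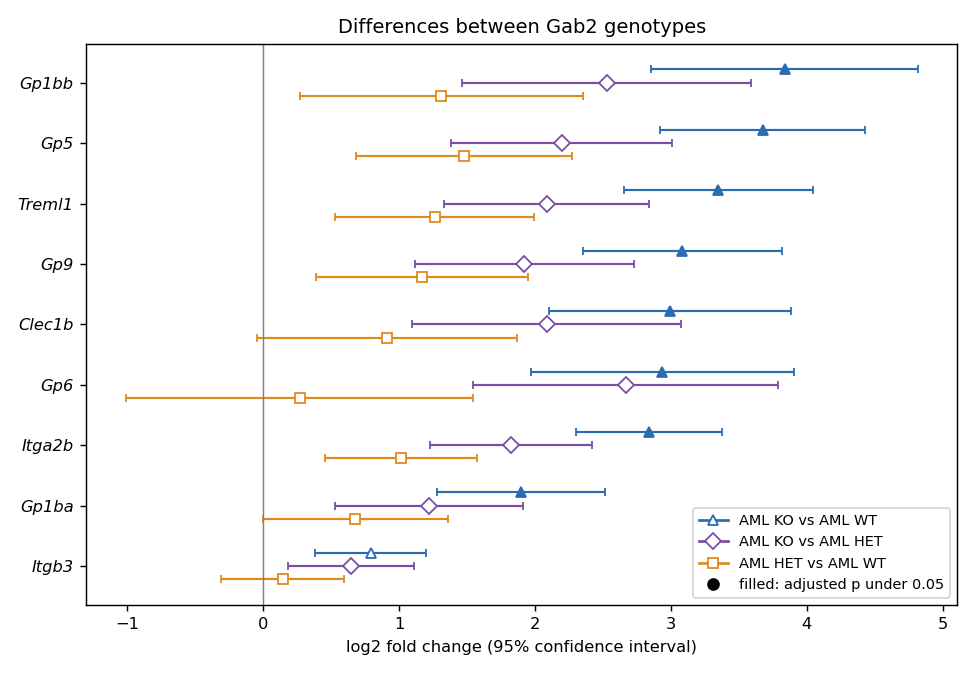
Log2 fold change of each receptor gene with its 95% interval from edgeR, for AML KO over AML WT, AML HET over AML WT and AML KO over AML HET, filled where the adjusted p was under 0.05. In the first comparison the points run from 0.79 for Itgb3 to 3.84 for Gp1bb, and the AML HET over AML WT points, from 0.14 to 1.48, are the smallest of the 3 for each gene.

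Loss of a single Gab2 allele went with smaller differences. AML HET exceeded AML WT without overlap in 8 of the 9 genes, Itgb3 being the exception, against 9.53% of all genes. For Gp6 this held by library scaling alone, since its raw AML HET counts of 5 and 6 lay inside the AML WT counts of 4 to 7. The margin was also narrow for Gp1bb (1.09 over 1.07 CPM) and Gp1ba (2.35 over 2.29 CPM). None of the 9 passed the adjusted threshold (adjusted p from 0.555 for Gp5 to 0.990), where 0.0225% of all genes were called higher (edgeR quasi-likelihood test, Benjamini-Hochberg adjusted). At an unadjusted p under 0.05, 5 of the 9 were higher (Itga2b, Gp5, Gp9, Treml1 and Gp1bb), beside 1.65% of all genes. After adjustment limma-voom called 0 of the 9. DESeq2 called 2, Itga2b and Gp5, among the 50 genes it called higher in the whole table. The log2 fold changes were 1.48 for Gp5 (SE 0.35), 1.31 for Gp1bb (SE 0.46), 1.26 for Treml1 (SE 0.33), 1.17 for Gp9 (SE 0.35) and 1.01 for Itga2b (SE 0.25). Those of the other 4 were 0.91 for Clec1b (SE 0.43), 0.68 for Gp1ba (SE 0.30), 0.27 for Gp6 (SE 0.57) and 0.14 for Itgb3 (SE 0.20). AML HET mouse 2 was above AML HET mouse 1 in all 9 genes. The median log2 fold change of the 9 went from 1.01 to 0.52 without AML HET mouse 2 and to 1.32 without AML HET mouse 1. The size of the heterozygous difference therefore depends on which of these mice is used.

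AML KO in turn exceeded AML HET without overlap in 9 of the 9 genes, against 13.2% of all genes. No gene of the table was called higher in this comparison (0% of all genes, edgeR quasi-likelihood test, Benjamini-Hochberg adjusted), so none of the 9 was, with adjusted p between 0.256 for Itga2b and 0.735 for Itgb3. All 9 had an unadjusted p under 0.05 in edgeR, beside 3.52% of all genes. After adjustment DESeq2 called 8 of them, Itgb3 excepted, among the 67 genes it called higher in the whole table. Limma-voom called 0 of all genes. The log2 fold changes ran from 0.65 for Itgb3 (SE 0.21) and 1.22 for Gp1ba (SE 0.31) to 2.53 for Gp1bb (SE 0.47) and 2.67 for Gp6 (SE 0.50). On the log2 scale from AML WT (0) to AML KO (1), the AML HET mean lay between 0.214 and 0.388 for 8 genes and at 0.084 for Gp6, whose counts in AML HET were the lowest. The AML HET libraries enter both of these comparisons.

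Levels of different genes were compared only per kilobase of exon, as mean CPM per kb. In AML WT, Itgb3 led with 12.1 ± 3.37 (SD, n = 3) and Itga2b followed with 2.36 ± 0.084 (SD, n = 3), with no overlap between their mice. Gp9 at 1.75, Treml1 at 1.03, Gp1ba at 0.732, Gp5 at 0.504, Gp1bb at 0.414, Clec1b at 0.265 and Gp6 at 0.0256 made up the rest. Neighbors in this order overlapped, except that Itgb3, Gp9 and Clec1b each stood clear of the gene below. In AML KO, Itgb3 at 20.9 ± 1.65, Itga2b at 16.9 ± 4.77, Gp9 at 14.9 ± 3.42 and Treml1 at 10.4 ± 1.75 (SD, n = 3 each) formed an overlapping series at the top. Gp5 at 6.44 and Gp1bb at 5.89 overlapped below them, followed by Gp1ba at 2.73 and Clec1b at 2.11, which overlapped, and by Gp6 at 0.200. The order therefore changed in 1 place between these groups, with Gp1ba passing from above Gp5 and Gp1bb to below both. The lead of Itgb3 over Itga2b was smaller. The place of Gp1bb is uncertain, since 91.1% of the exon bases it was divided by are shared with Sept5. AML HET kept the order of AML KO for Gp5 and Gp1ba and that of AML WT for Gp1ba and Gp1bb, but these neighbors overlapped there.

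Because subunits of a complex are needed together, the ratio of their counts was followed within each library (log2 of the counts plus 0.5). The ratio of Itga2b to Itgb3 was -2.88, -2.18 and -2.24 in AML WT, -1.92 and -1.35 in AML HET and 0.00, -0.82 and -0.54 in AML KO, so that it was higher in AML KO by 1.98. For Gp1ba to Gp1bb it was 2.06, 1.08 and 0.56 in AML WT and -1.15, -0.42 and -0.56 in AML KO, a difference of -1.94 that carries the uncertainty of Gp1bb. The ratio was higher in AML KO by 1.18 for Gp9 to Gp1ba, by 1.80 for Gp5 to Gp1ba and by 2.60 for Gp6 to Fcer1g. Fcer1g, at a mean of 403 CPM in AML WT beside 0.151 for Gp6, and Itgb3 are also transcribed in other BM cells. The ratios to these genes therefore do not describe megakaryocytes alone. In all 5 ratios no AML KO mouse overlapped an AML WT mouse, and each two-sided exact permutation test gave p = 0.1, the smallest that 3 against 3 mice can give. None can therefore pass 0.05, and the share of other gene pairs without such overlap was not computed.

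**Figure D3:**
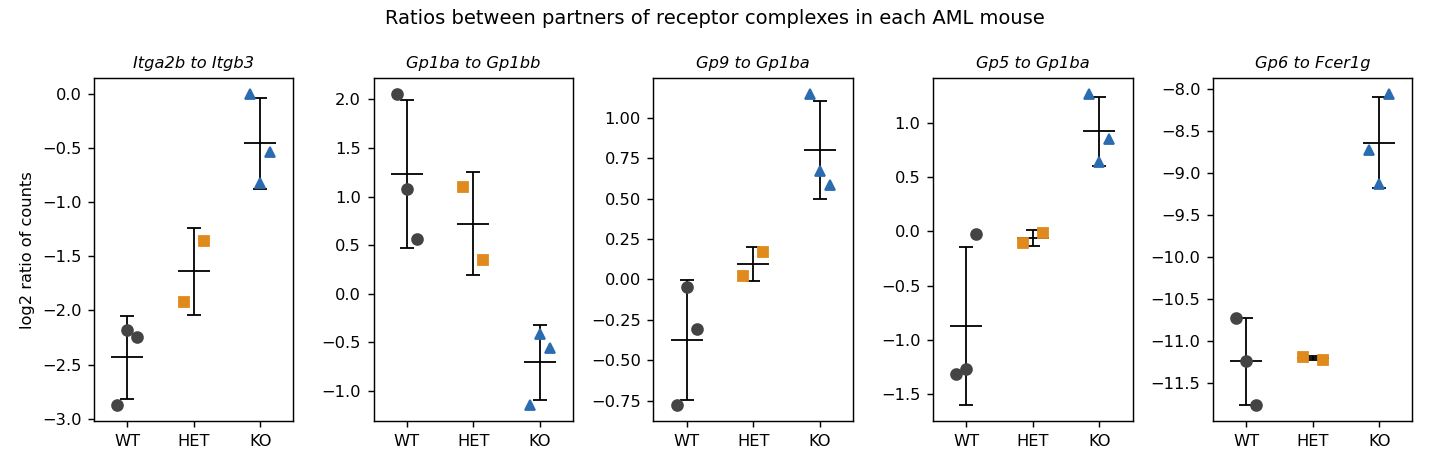
Log2 ratio of the counts of receptor partners in each mouse (1 point per mouse, lines at the group means, error bars of 1 SD). The ratio of Itga2b to Itgb3 moves from between -2.88 and -2.18 in AML WT to between -0.82 and 0.00 in AML KO, and the ratio of Gp1ba to Gp1bb moves the other way.

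Other transcripts of the megakaryocyte lineage were set beside the receptors in a list of 22 genes. Of these, 15 rose between AML WT and AML KO, 0 fell and 7 were not called, with a median log2 fold change of 1.67. The largest called changes were those of Pf4, platelet factor 4 (log2 fold change 3.99, SE 0.38, adjusted p = 0.00206), and Ppbp, a platelet chemokine (3.44, SE 0.24, adjusted p = 8.8e-04). Alox12, the platelet lipoxygenase (3.28, SE 0.32, adjusted p = 0.00206), and Mmrn1, a carrier of factor V (2.66, SE 0.30, adjusted p = 0.00472), came next (edgeR quasi-likelihood test, Benjamini-Hochberg adjusted). These 4 stayed called with each mouse left out, while the list held 6 called genes without AML WT mouse 2. The most abundant genes of the list, Nfe2 (log2 difference 0.54, adjusted p = 0.107) and Plek (-0.07, adjusted p = 0.847), are also used by other myeloid cells and were not called.

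The receptors were then related to the summed counts of these 22 genes in the same library. On that scale 8 of the 9 were clear of AML WT in each AML KO mouse, by log2 differences from 1.34 for Gp1ba to 3.28 for Gp1bb (two-sided exact permutation test, p = 0.1 each, the smallest possible). Itgb3 overlapped, with a difference of 0.26 (p = 0.4, same exact test). The share of all genes clear of AML WT on that scale was not computed. Nfe2, Plek and Nbeal2 made up 62.0% to 77.5% of that sum, so the choice of reference decides the result. Against the median of the 22 genes, the differences were -1.49 for Itgb3 and -0.41 for Gp1ba, which turned their direction, 0.49 for Itga2b, 0.51 for Gp6 and 0.64 for Clec1b. Gp9 (0.77), Treml1 (1.04), Gp5 (1.39) and Gp1bb (1.53) had p = 0.1 in the exact test, as had Itgb3 with its turned sign, while Itga2b had 0.2 and Gp1ba, Gp6 and Clec1b had 0.3.

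Across the 8 mice, the genes whose log2 CPM followed the mean of the 9 receptors most closely by Pearson's r were Myl9 (0.996), Kalrn (0.993), Rab27b (0.987), Ccdc189 (0.987), Pf4 (0.986), Alox12 (0.983), Rflnb (0.981), Gnaz (0.981), Slpi (0.980) and Nlrp12 (0.980). Among the receptors themselves, r ran from 0.896 (Gp1ba with Clec1b) to 0.994 (Gp1bb with Treml1, and Gp9 with Treml1) when Itgb3 was set aside. Itgb3 had its highest r among them with Gp1ba (0.918) and its lowest with Clec1b (0.748). Singly, Itga2b was most like Pf4 (0.990), Myl9 (0.988) and Treml1 (0.988), and Gp5 was most like Pf4 (0.994), Proser2 (0.994) and Myl9 (0.989). For Gp1ba these were Alox12 (0.996), Vwf (0.992) and Slc6a4 (0.989), for Gp1bb Treml1 (0.994), Tinagl1 (0.994) and Slpi (0.991), and for Gp9 Rflnb (0.995), Treml1 (0.994) and Cavin1 (0.990). For Treml1 they were Gp1bb (0.994), Gp9 (0.994) and Pf4 (0.993), for Clec1b Krt18 (0.992), Rbpms2 (0.990) and H1fx (0.989), and for Gp6 Myct1 (0.977), Fam222b (0.971) and Sytl1 (0.970). The genes most like Itgb3 were Mgam (0.980), Gucy1a1 (0.970) and Ncam1 (0.967), none of them among the genes nearest to the other receptors. These are descriptions over 8 mice that share their group differences, their libraries and their depth.

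Fewer of the genes that work around the receptors were called. Of 12 analysed genes of integrin activation, the machinery that switches αIIbβ3 on from within, 0 were called by edgeR, DESeq2 or limma-voom, 1 (Parvb, 0.39) had an unadjusted p under 0.05 in edgeR, and the median log2 difference was -0.09. Its most abundant genes were Tln1, the talin that binds the β3 tail (log2 difference -0.28, SE 0.21), and Zyx, a focal adhesion protein (-0.05, SE 0.16). Of 5 analysed genes that link GPIb to the cytoskeleton or shed the receptors, again 0 were called by these 3 tools, 1 (Actn1, 0.56) had an unadjusted p under 0.05 in edgeR, and the median was -0.17. Flna, the filamin that anchors GPIbα, differed by -0.17 (SE 0.20), and Ywhaz, the 14-3-3 protein that binds its tail, by 0.00 (SE 0.11). Parvb and Actn1 are named after their values were seen. In AML WT the 12 genes summed to 2653 to 3252 CPM and the 5 genes to 2302 to 3224, beside 80.3 to 114 for the 9 receptors. At such levels a change confined to megakaryocytes may not show in whole BM, and levels in megakaryocytes alone were not tested.

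Downstream of Gp6 and Clec1b, 1 of 16 ITAM and hemITAM signaling genes rose and 0 fell, with a median of -0.04. The gene that rose was Prkcq, a protein kinase C isoform (log2 fold change 1.09, SE 0.18, adjusted p = 0.0163, edgeR quasi-likelihood test, Benjamini-Hochberg adjusted), a call lost without AML WT mouse 2, AML KO mouse 1 or AML KO mouse 3. Fcer1g, given above, and Ptpn6, an inhibitory phosphatase (-0.14, SE 0.11), were the most abundant of this list. The 16 genes summed to 2879 to 2923 CPM in AML WT, so the same limit applies to them. Among 9 analysed receptors for soluble agonists, F2rl2, a protease-activated receptor of mouse platelets, was the 1 called gene (log2 fold change 1.49, SE 0.25, adjusted p = 0.0174, same test), and its call was lost without AML WT mouse 1, AML WT mouse 2 or AML KO mouse 1. The median of the 9 was 0.51, and DESeq2 called 5, among 730 genes in the whole table. The most abundant, P2rx1, an ATP-gated channel (0.51, SE 0.14), and Ptgir, the prostacyclin receptor (0.03, SE 0.16), were not called by edgeR.

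Other platelet surface adhesion proteins split. Of 17 analysed, 2 rose and 0 fell, with a median of -0.02. Mpig6b, the inhibitory receptor G6b-B of megakaryocytes, stood at 0.565, 0.253 and 0.429 CPM in the AML WT and 6.21, 5.28 and 3.54 in the AML KO mice. Its log2 fold change of 3.56 (SE 0.40, adjusted p = 0.00472, edgeR quasi-likelihood test, Benjamini-Hochberg adjusted) was within the range of the 9 receptors. Pear1, a contact receptor, rose by 1.09 (SE 0.17, adjusted p = 0.0129, same test), a call lost without AML WT mouse 2 or AML KO mouse 3. Itgb1, the β1 integrin chain used by most cells (-0.31, SE 0.12), and Cd47 (-0.18, SE 0.14) were the most abundant and were not called.

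Of 6 analysed ligands of the receptors, Vwf, the ligand of GPIbα made in megakaryocytes and endothelium, was the 1 called gene. It stood at 8.75, 7.55 and 5.30 CPM in AML WT mice, 7.75 and 12.97 CPM with 1 Gab2 allele left (AML HET) and 27.96, 27.5 and 22.5 CPM in AML KO mice, with AML HET overlapping AML WT. The log2 fold change was 1.85 (SE 0.25, adjusted p = 0.00884, edgeR quasi-likelihood test, Benjamini-Hochberg adjusted), and 0.0579 was the adjusted p without AML WT mouse 2. The most abundant of the list were Fn1, fibronectin, with a log2 difference of -0.78 (SE 0.40), and Col1a1, a collagen chain, with one of -0.90 (SE 0.27), and neither was called by edgeR. The other matrix ligands did not share one sign, with log2 differences of 1.34 for Thbs1, thrombospondin (SE 0.32), -0.95 for Col1a2 and -0.07 for Col3a1, named after their values were seen and not called by edgeR. DESeq2 called 4 of the 6 ligand genes, among 730 genes in the whole table.

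Among 14 analysed transcription factors of megakaryocytes, 5 rose and 0 fell, with a median of 0.45. They were Gata1 (log2 fold change 3.54, SE 0.53, adjusted p = 0.0127), Gfi1b (1.76, adjusted p = 0.0374), Gata2 (1.76, adjusted p = 0.0102), Tal1 (1.23, adjusted p = 0.0156) and, named because only 5 were called, Zfpm1 (1.18, adjusted p = 0.0457) (edgeR quasi-likelihood test, Benjamini-Hochberg adjusted). Gata1 stood at 0.639, 1.55 and 0.980 CPM in AML WT mice, 2.35 and 7.17 CPM with 1 Gab2 allele left (AML HET) and 19.2, 8.08 and 9.34 CPM in AML KO mice. AML HET mouse 2 again exceeded mouse 1. All 5 factors are shared with erythroid cells or mast cells, and none of the 5 was called without AML WT mouse 2, while 3 or 4 were with any other mouse left out. Nfe2, given above, and Ldb1 (0.36, SE 0.20), the most abundant of the list, were not called.

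**Figure D4:**
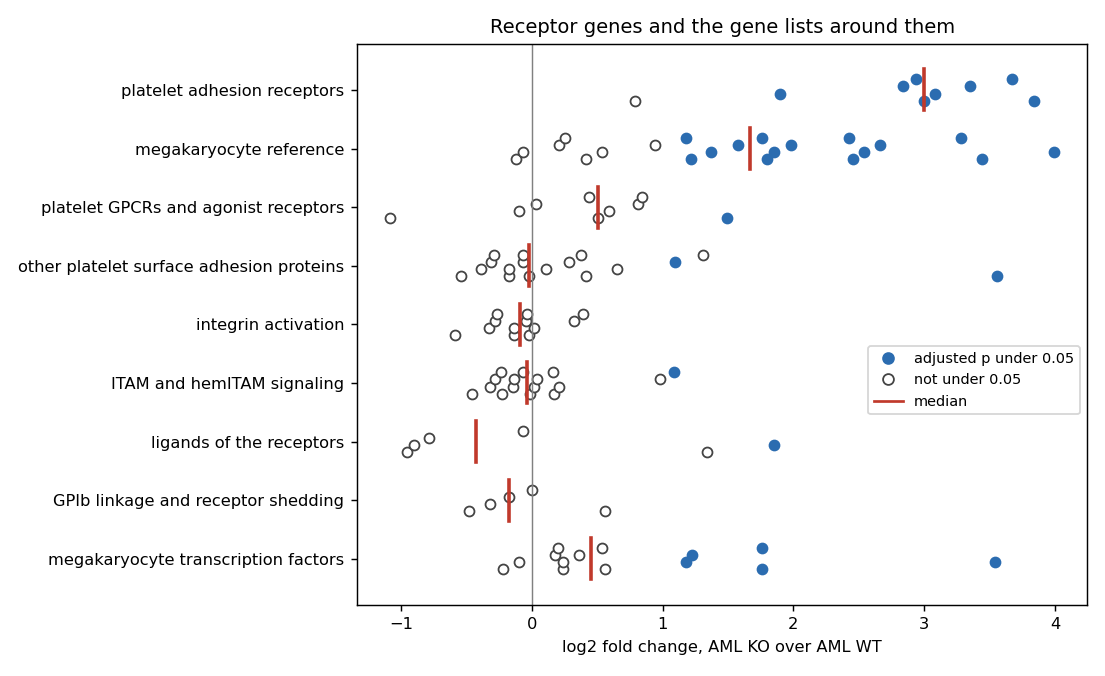
Log2 fold change, AML KO over AML WT, of each gene (points) of the receptors and of the lists around them, with the median as a line and filled points where the adjusted p was under 0.05. The receptors have a median of 3.00 and the other megakaryocyte genes one of 1.67, while integrin activation and ITAM signaling lie around 0, at -0.09 and -0.04. All values are from whole BM, where a change confined to megakaryocytes may not show in abundant genes.

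Markers of other BM cells also differed between the groups. Of 14 analysed erythroid genes 12 were called higher in AML KO, and their sum was 320 to 453 CPM in AML WT, 700 and 2236 in AML HET and 1549 to 5444 in AML KO. Of 10 neutrophil genes 6 were called higher, with sums of 1279 to 4669 in AML WT, 5376 and 6050 in AML HET and 10403 to 17056 in AML KO. Of 5 mast cell and basophil genes 4 were called higher (43.6 to 54.4, then 97.0 and 87.0, then 149 to 311). Of 9 stem and progenitor genes 3 were (407 to 468, then 508 and 429, then 542 to 637). Of 6 endothelial genes 1 was, Tie1 (40.9 to 51.3, then 45.9 and 51.4, then 58.7 to 82.0). None of 7 monocyte genes was called by edgeR, DESeq2 or limma-voom, 2 had an unadjusted p under 0.05 in edgeR, and their sum was 5326 to 6209 in AML WT and 4101 to 5605 in AML KO. Without AML WT mouse 2, 0 genes of these marker lists were called, and without AML WT mouse 1, 1 of the erythroid genes was. The sum of the 9 receptors was 80.3 to 114 CPM in AML WT, 108 and 138 in AML HET and 253 to 334 in AML KO. AML KO mouse 1, highest of its group in 6 of the 9 receptors, was also highest in the erythroid, neutrophil, mast cell, and stem and progenitor sums. It was not highest in the endothelial, monocyte and osteoclast sums. AML HET mouse 2 exceeded mouse 1 in the erythroid, neutrophil and endothelial sums as in the 9 receptors. It was below mouse 1 in the mast cell, stem and progenitor, monocyte and osteoclast sums. The part of these cells in the receptor values was not tested.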

How the data were processed

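RNA was extracted from freshly isolated whole BM of 8 mice (3 AML WT, 2 AML HET, 3 AML KO). Per the labels, reads were trimmed with Trimmomatic 0.36 and aligned to mm10 with STAR 2.5.2b. The authors deposited 1 table of raw counts per gene by Ensembl identifier, unnormalized; its annotation, strand setting and treatment of multi-mapping reads are not given in the sources used here. No gene in it sums to fewer than 106 counts, so rarely detected genes are not analysed here. Of its 13305 identifiers, 13266 matched GENCODE M21 (GRCm38), from which symbols, positions and exon lengths were taken.

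Counts were fitted with edgeR 4.0.16 in R 4.3.3 (TMM, filterByExpr, which removed 0 genes, and the robust quasi-likelihood test) over all 8 mice with genotype as the only term. P-values were adjusted over all genes by Benjamini-Hochberg, with 0.05 as threshold. SEs follow from the log2 fold change and its F statistic, intervals are 95%, and no p was adjusted over the 9 genes alone. The edgeR fit was tested on simulated counts. Ratios of counts (plus 0.5) were compared by exact permutation tests over mice. Likeness was Pearson's r of log2 CPM (prior count 2). DESeq2 1.42.0, limma-voom 3.58.1, upper-quartile scaling, a CPM filter, a replicate block and leaving out each mouse were alternatives. Named from each list were up to 4 called genes with the largest change, the 2 most abundant, the 10 genes most like the receptors and the 3 most like each. The receptors and lists were chosen with earlier results of these data known. Libraries of a group are separate mice. The depth of 28009258 to 39266815 counts limits Gp6 most, and floors cover counting error only.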

Additional observations from a re-analysis of the deposited data

How the results depend on the processing

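Under each alternative run, all 9 receptors kept their direction in the 3 comparisons. The number of genes called between AML KO and AML WT was 278 (235 higher, 43 lower), 730 with DESeq2 (503 higher, 227 lower), 19 with the replicate block and 40 to 370 with each mouse left out (lowest without AML WT mouse 2, highest without AML KO mouse 2). Between AML HET and AML WT it was 3, against 59 with DESeq2, 1 with limma-voom, 0 with the replicate block and 1 to 5 with a mouse left out. Between AML KO and AML HET it was 0, against 77 with DESeq2 and 0 to 4 with a mouse left out. Receptors called between AML KO and AML WT numbered 8, with 5 to 9 when a mouse was left out and 4 with the replicate block, where Itga2b, Gp5, Gp9 and Treml1 were called. DESeq2 called 2 receptors when AML HET was set against AML WT and 8 when it was set against AML KO. The ratios of Itgb3 and Gp1ba to the 22 megakaryocyte genes reversed when their median replaced their sum, to -1.49 and -0.41. The cause of these shifts was not tested. Mouse numbers are shared by label only. The deviations of same-numbered AML WT and AML KO mice from their group means correlated at -0.51, -0.11 and -0.13. Those of AML WT and AML HET correlated at 0.08 and 0.29, and those of AML HET and AML KO at -0.14 and -0.04. Deviations cancel out within groups this small, so these values cannot decide whether the mice are paired. The block is given here alone. With 1 AML HET mouse left, the lone mouse is assumed to vary like the others. Depth limits Gp6, with 4 to 7 counts in AML WT and AML HET.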
